A study of Mus musculus with 12 samples.

Results

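Gpx4 loss was examined in regulatory T cells (Treg cells) of 11-week-old mice after 4 h of stimulation through CD3 and CD28. The comparison set 3 libraries of Gpx4-deficient cells against 3 libraries of wild-type cells, 6 of the 12 libraries of the series, chosen by the genotype and treatment in the sample labels. Gpx4-deficient cells came from Foxp3CreGpx4fl/fl mice, in which Cre recombinase expressed from Foxp3 removes a loxP-flanked Gpx4. The controls are labelled only as WT, so an effect of Cre itself and an effect of Gpx4 loss cannot be told apart. Both genotypes had been sorted and cultured in medium with serum, with plate-bound antibodies at 5 µg/ml. The other 6 libraries, 3 of each genotype, were labelled as unstimulated and served to estimate the spread between libraries and to ask whether a genotype difference depended on stimulation. The labels do not say that libraries of a group came from separate mice, so each p-value rests on the spread between libraries, part of which may be technical.

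Gpx4 encodes a selenoprotein that uses glutathione to reduce lipid hydroperoxides within membranes, and its loss leaves many cell types open to ferroptosis, an iron-dependent form of death driven by lipid peroxidation. Treg cells are CD4 T cells that depend on the transcription factor Foxp3 and restrain immune responses. Ligation of the T cell receptor (TCR) with CD28 induces immediate early transcription factors within minutes to hours, and then biosynthetic genes that prepare growth and division. The series title names lipid peroxidation and ferroptosis of Treg cells as the subject of the study.

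Levels are given as CPM, counts scaled to the library's total, in the order of replicates 1 to 3, and fold changes as log2 of Gpx4-deficient over wild type. Calls required an adjusted p under 0.05 (Benjamini-Hochberg, over all 14827 genes tested) in the edgeR quasi-likelihood test, and adjusted p-values are from edgeR unless another tool is named. Gpx4 (GRCm38 chr10:80047166-80056439, plus strand) checked the labels. Its level was 107, 82.8 and 69.2 CPM in wild-type and 3.34, 9.22 and 8.52 CPM in Gpx4-deficient libraries, and the groups did not overlap (-3.62, SE 0.43, adjusted p = 0.00171). The remaining signal was 8.13% of the wild-type mean, counted over the whole gene and not over the deleted part alone. Foxp3, which defines the Treg lineage, was present in all 6 libraries, at 35.8, 43.5 and 33.7 CPM in wild-type and 47.8, 75.8 and 67.9 CPM in Gpx4-deficient libraries. All 3 Gpx4-deficient libraries lay above the wild-type ones, but the difference was not called (0.76, SE 0.29, adjusted p = 0.193).

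The libraries held 24629230 to 25707372 counts in stimulated wild type and 27753405 to 31879267 in stimulated Gpx4-deficient cells. The Gpx4-deficient group was the more variable. Its replicates correlated at 0.795 to 0.820 across genes, against 0.890 to 0.910 in wild type, and its common dispersion was 1.43 against 0.531. The number of genes at 0 in a library but at a mean of at least 5 CPM in all other libraries of the series was 106 to 190, against 25 to 69. With the mean taken over the other stimulated libraries only, the number was 74 to 154, against 28 to 56. Among 8 Treg markers, Ikzf2 rose and the summed level was 6473 to 6924 CPM in wild-type and 6824 to 7819 CPM in Gpx4-deficient libraries. Tnfrsf18 (GITR), another of the 8, was wholly below wild type and not called, at 2154, 1859 and 1741 CPM in wild-type and 1293, 1179 and 1335 CPM in Gpx4-deficient libraries (-0.60, SE 0.16, adjusted p = 0.0776). Of 9 marker lists for other cell types, only the plasma cell list held called genes (3 of 7 tested). The B cell sum was 18.3 to 26.8 CPM against 7.10 to 67.4 CPM, the monocyte and macrophage sum 25.8 to 65.5 CPM against 65.1 to 114 CPM, and the CD8 T and NK cell sum 48.8 to 60.1 CPM against 36.9 to 39.9 CPM. The erythroid and platelet sum was 8.52 to 28.3 CPM against 40.1 to 54.1 CPM, without overlap, with all 6 tested members positive (median 1.41) and none called. Its globin genes reached at most 29.1 CPM in any of the 6 libraries, and the part of this signal in the differences below was not tested. The sums of the other 4 lists overlapped between the genotypes. Defining markers of B cells, macrophages, CD8 T cells and platelets were at or near 0 in the 6 libraries, with Pax5 at most 0.0812 CPM, Cd8a at most 0.0377 CPM and Fcgr1, Cd163 and Ppbp at 0. In bulk RNA, fewer cells of a type and less RNA per cell cannot be told apart.

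Of 14827 genes tested, 337 (2.27%) differed between the genotypes in stimulated cells. Gpx4-deficient cells were higher for 152 genes (1.03%) and lower for 185 (1.25%), and the median over all tested genes was 0.00. The genes that rose were mostly abundant, and 145 of 152 had a mean log2 CPM of 3 or more. Their median log2 fold change was 1.11, and 90 rose by at least 1 on the log2 scale. The genes that fell came in 2 kinds. Of 185, 96 reached a mean log2 CPM of 3, and 89 lay below it, where 16 were at 0 in all 3 Gpx4-deficient libraries and 27 had 1 to 3 counts in total there. The median over the fallen genes was -2.72. The 3 libraries of one genotype lay beyond the 3 of the other for all 152 genes that rose and for 184 of 185 that fell, against 20.1% of all tested genes. For the lists below, the shares over all tested genes were 1.03% called higher and 1.25% called lower. Wholly above wild type lay 8.29% of all tested genes, and wholly below it 11.9%.

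**Figure D1:**
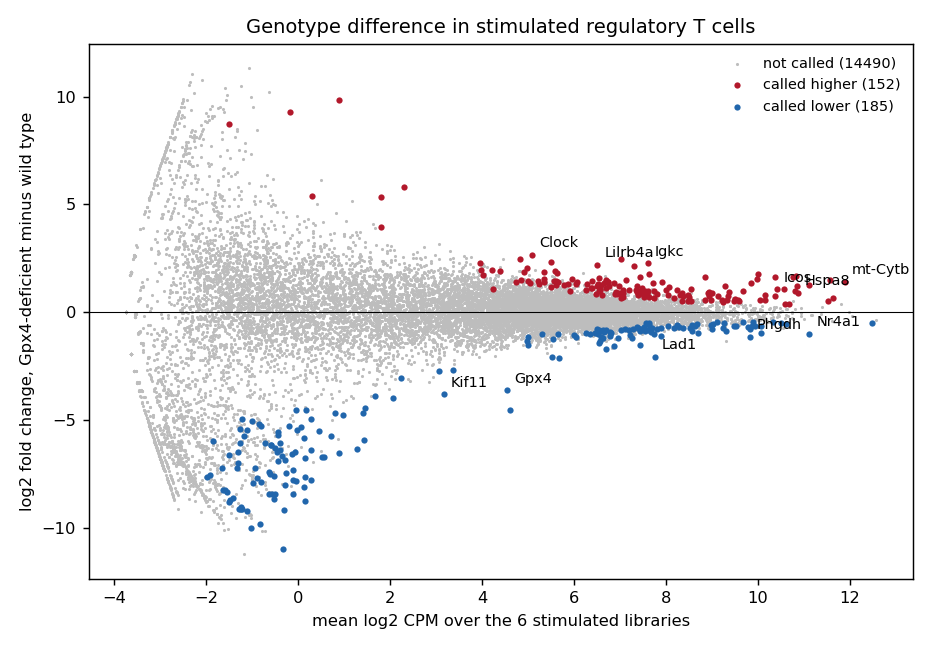
Log2 fold change (Gpx4-deficient minus wild type, vertical) against mean log2 CPM over the 6 stimulated libraries (horizontal), 1 point per tested gene. Red points are the 152 genes called higher, blue points the 185 called lower and grey points the genes not called. The genes called higher lie mostly at high levels, and many genes called lower form a separate group at low mean levels with log2 fold changes under -4. The mean level includes the Gpx4-deficient libraries, so a near loss there itself moves a point to the left.

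How many genes passed depended on which libraries were in the fit. The fit pooled the spread of all 12 libraries. With only the 6 stimulated libraries, the same edgeR test called 22 of 12472 genes tested, 17 higher and 5 lower, all of them among the 337. These were 10 mitochondrially encoded protein genes, Icos, Igkc, Lilrb4a, Hspa8, Phgdh, Nr4a1, Wdr4, Lad1, the pseudogene Tdg-ps2 and the unnamed models Gm4366, Gm4759 and Gm10925. Gpx4 itself was not called there (-3.60, adjusted p = 0.0648) or by limma-voom with sample quality weights (-3.81, adjusted p = 0.0736). With the stimulated libraries alone, 333 of the 337 genes could be tested, all 333 kept their direction and 332 had an unadjusted p under 0.05. Leaving out 1 wild-type library gave 117, 158 and 164 calls (replicates 1, 2 and 3), and leaving out 1 Gpx4-deficient library gave 658, 625 and 389. Without any 1 library, 96 genes kept their call each time, 47 higher and 49 lower.

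Transcripts of the mitochondrial genome rose in Gpx4-deficient cells. These genes encode core subunits of respiratory complexes I, III and IV and of ATP synthase, and are transcribed inside the organelle. Of 13 tested, 11 rose, all 13 had every Gpx4-deficient library above every wild-type library (8.29% of all genes), and the median log2 fold change was 1.53. Their summed level was 11256 to 12109 CPM in wild type, against 25435 to 33969 CPM in Gpx4-deficient cells. Without the TMM factor, they made up 1.09 to 1.23% and 2.52 to 3.25% of all counts. They were also higher without stimulation, where the sum was 10934 to 12343 CPM in wild type, against 15426 to 17724.5 CPM in Gpx4-deficient cells. The median there was 0.50 and none of the 13 was called. mt-Cytb, the complex III subunit, had 2296, 2406 and 2310.2 CPM in wild-type and 5527, 5833 and 7317 CPM in Gpx4-deficient libraries (1.41, SE 0.11, adjusted p = 0.000134). mt-Nd5, of complex I, had 519, 649.6 and 513 CPM in wild-type and 1752, 1761 and 2177 CPM in Gpx4-deficient libraries (1.76, SE 0.15, adjusted p = 0.000222). The complex I subunit mt-Nd2 was at 240.2, 276 and 276 CPM in wild-type and 699.7, 807 and 969 CPM in Gpx4-deficient libraries (1.64, SE 0.13, adjusted p = 0.000134). In each of them replicate 3 was the highest Gpx4-deficient library, and no wild-type library came near the lowest Gpx4-deficient one. The ATP synthase subunits mt-Atp6 (1.51, adjusted p = 0.000222) and mt-Atp8 (2.44, 0.00251) rose, as did mt-Co2 (1.63, 0.000582) and mt-Co3 (1.08, 0.000582) of complex IV and mt-Nd4 (1.53, 0.000274) and mt-Nd6 (2.11, 0.00185) of complex I. The small ribosomal RNA mt-Rnr1 rose too (1.76, 0.00171). Among unnamed models, the nuclear pseudogenes Gm10925, Gm28437 and Gm10222, named after their values were seen, also rose (1.37, 0.99 and 1.83), and reads of mitochondrial copies in the nuclear genome cannot always be told apart from those of the organelle. All 10 of the named mitochondrially encoded transcripts above kept their call without any 1 library. Library sizes computed without the 13 protein genes gave 334 calls over all genes.

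Some nuclear genes for mitochondrial proteins fell. Among 36 nuclear subunits of complexes I and V, Ndufb5 and Atp5b fell, and the list median was 0.03. Atp5b, the catalytic beta subunit of ATP synthase, was at 2089, 1763 and 1870.0 CPM in wild-type and 1502, 1229 and 1183 CPM in Gpx4-deficient libraries (-0.55, SE 0.12, adjusted p = 0.0433). Among 21 mitochondrial import factors, chaperones and proteases, 3 fell and the median was -0.47, with 12 members wholly below wild type. All tested genes stood at a median of 0.00, with 11.9% wholly below. Hspa9, the mitochondrial HSP70, was at 952, 877 and 919 CPM in wild-type and 548, 579 and 654 CPM in Gpx4-deficient libraries (-0.63, SE 0.12, adjusted p = 0.0238). Phb2, a prohibitin of the inner membrane, fell from 266 ± 26.98 to 151 ± 23.6 CPM (-0.81, SE 0.15, adjusted p = 0.0189), and Timm50, an import receptor, from 139 ± 15.1 to 73.96 ± 18.1 CPM (-0.91, SE 0.20, adjusted p = 0.0411). The 22 genes for mitochondrial transcription and RNA stability had a median of -0.17, and none was called by edgeR, against 5 with an unadjusted p under 0.05, 3 by DESeq2 and 1 by limma-voom. Ndufb5 and Hspa9 were not called without any 1 wild-type library or Gpx4-deficient replicate 1 (adjusted p = 0.0589 to 0.159). Atp5b and Timm50 were not called without any 1 wild-type library or Gpx4-deficient replicate 2 or 3 (adjusted p = 0.0804 to 0.184). Phb2 was not called without any 1 wild-type library (adjusted p = 0.0571 to 0.11).

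**Figure D2:**
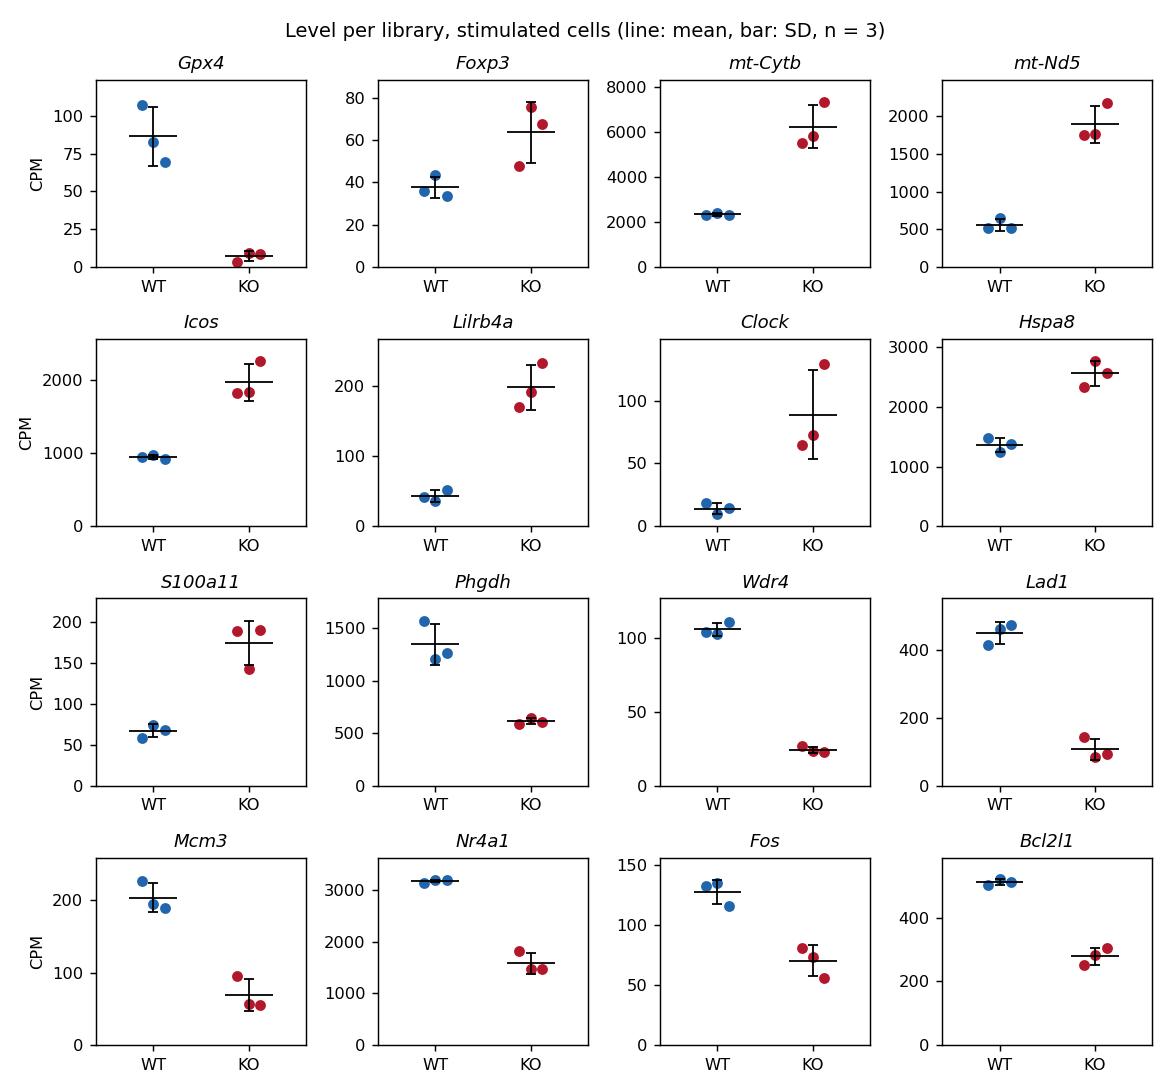
CPM of 16 genes in each of the 6 stimulated libraries (blue, wild type, WT; red, Gpx4-deficient, KO). Horizontal lines are means and bars are SD over 3 libraries, on linear axes that start at 0. In each panel the 3 red points lie entirely above or entirely below the 3 blue points, and Foxp3 is the one gene shown that was not called.

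Few genes close to the function of Gpx4 were called. Fth1, the ferritin heavy chain that stores iron in an oxidised form, was the called gene among 19 in lipid peroxide and ferroptosis defence, and the same gene was the one called among 15 in iron handling. It was at 1314, 1394 and 1349 CPM in wild-type and 1704, 1814 and 1779.8 CPM in Gpx4-deficient libraries (0.39, SE 0.09, adjusted p = 0.0387). In ferroptosis defence the median was -0.08. Dhodh, a mitochondrial pyrimidine synthesis enzyme also linked to ferroptosis defence, was not called at 34.6 ± 7.86 against 3.63 ± 4.50 CPM (-3.25, SE 0.97, adjusted p = 0.113), nor was Gclm, a subunit of the glutathione synthesis enzyme, at 22.8 ± 6.36 against 46.9 ± 12.1 CPM (1.04, SE 0.41, adjusted p = 0.215). Both were chosen after their values were seen. Among 16 ferroptosis drivers and markers none was called (median -0.36), against 1 with an unadjusted p under 0.05 and 1 by DESeq2, and the same counts held for 17 other selenoproteins (median -0.09). limma-voom called none in either list.

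Among 20 peroxiredoxins, thioredoxins and superoxide dismutases, 2 rose, 1 fell and the median was 0.02. Txnip, an inhibitor of thioredoxin and of glucose uptake, was at 187, 182 and 169 CPM in wild-type and 462, 316 and 444 CPM in Gpx4-deficient libraries (1.18, SE 0.16, adjusted p = 0.00344). Glrx, the cytosolic glutaredoxin, rose from 42.4 ± 9.47 to 106 ± 20.6 CPM (1.32, SE 0.22, adjusted p = 0.0103). Txn2, the mitochondrial thioredoxin, fell from 271 ± 36.5 to 162 ± 30.8 CPM (-0.74, SE 0.17, adjusted p = 0.0433). Fth1 and Txn2 were not called without any 1 wild-type library or Gpx4-deficient replicate 2 or 3 (adjusted p = 0.0557 to 0.192). Glrx was not called without wild-type replicate 1 (adjusted p = 0.0513).

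Several biosynthetic enzymes fell. In serine synthesis and folate one-carbon metabolism, which supply carbon units for nucleotides, 3 of 16 genes fell, 10 were wholly below wild type and the median was -0.61. Of all tested genes, 1.25% were called lower and 11.9% lay wholly below wild type. Phgdh (chr3:98313170-98339990, minus strand), the first enzyme of serine synthesis, was at 1573, 1211 and 1265 CPM in wild-type and 589, 643 and 603 CPM in Gpx4-deficient libraries (-1.14, SE 0.16, adjusted p = 0.00473). The 3 Gpx4-deficient libraries were close to each other and all below the lowest wild-type library. Shmt2, the mitochondrial enzyme that takes a carbon unit from serine, was at 1237, 1167 and 1133 CPM in wild-type and 822, 764 and 679 CPM in Gpx4-deficient libraries (-0.64, SE 0.11, adjusted p = 0.0149).

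Nucleotide, sugar and sterol genes showed fewer calls, beside 1.25% of all tested genes called lower and 11.9% wholly below wild type. Cad, the first enzyme of the pyrimidine pathway, was at 274, 227 and 215 CPM in wild-type and 73.97, 131 and 101 CPM in Gpx4-deficient libraries (-1.22, SE 0.20, adjusted p = 0.0111) and was the called gene among 20 in purine and pyrimidine synthesis (median -0.43). Ldha, the lactate dehydrogenase of activated T cells, was at 1821, 1303 and 1430.4 CPM in wild-type and 909, 791 and 637 CPM in Gpx4-deficient libraries (-0.96, SE 0.18, adjusted p = 0.0218), the called gene among 20 of glycolysis (median -0.40, 7 wholly below wild type). Of 24 cholesterol synthesis and uptake genes, 22 had a negative fold change and the median was -0.91, yet edgeR called none, against 9 with an unadjusted p under 0.05, 7 by DESeq2 and 2 by limma-voom. The summed level of those genes was 1224 to 1462 CPM in wild type, against 756 to 838 CPM in Gpx4-deficient cells, without overlap. Idi1, an isoprenoid isomerase chosen after its value was seen, was at 98.5, 53.2 and 91.5 CPM in wild-type and 33.1, 36.97 and 14.2 CPM in Gpx4-deficient libraries (-1.53, SE 0.37, adjusted p = 0.0565). Shmt2 was not called without any 1 wild-type library (adjusted p = 0.0667 to 0.0904). Cad was not called without wild-type replicate 1 (adjusted p = 0.068). Ldha was not called without wild-type replicate 1 or 3 (adjusted p = 0.0911 and 0.0559).

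Some genes of protein synthesis and folding fell as well. Among 32 ribosome biogenesis genes and Myc, 4 fell, 16 were wholly below wild type and the median was -0.30. Of all tested genes, 1.25% were called lower and 11.9% lay wholly below wild type. Npm1, the nucleolar protein nucleophosmin, was at 1064, 1113 and 1175 CPM in wild-type and 771, 787 and 865 CPM in Gpx4-deficient libraries (-0.47, SE 0.09, adjusted p = 0.0246). Nop16, a nucleolar assembly factor, fell from 184 ± 18.6 to 105 ± 7.15 CPM (-0.80, SE 0.17, adjusted p = 0.0328), Nhp2, a core protein of box H/ACA ribonucleoproteins, from 175 ± 4.12 to 96.97 ± 13.2 CPM (-0.85, SE 0.15, adjusted p = 0.0159) and Wdr43, a factor of the small subunit, from 465 ± 15.7 to 309.7 ± 35.6 CPM (-0.59, SE 0.13, adjusted p = 0.0351). Myc itself was at 1245 ± 88.8 against 1219 ± 118 CPM and was not called (-0.03, SE 0.11, adjusted p = 0.937). Of 19 aminoacyl-tRNA synthetases, which load transfer RNAs, 18 had a negative fold change and 11 were wholly below wild type (median -0.33). Vars, for valine, was the called one, at 598, 611 and 562 CPM in wild-type and 281, 361 and 255 CPM in Gpx4-deficient libraries (-0.98, SE 0.15, adjusted p = 0.00691).

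Among 23 translation factors, Eef2, the elongation factor that moves the ribosome along, was called, at 1946, 1711 and 1568 CPM in wild-type and 1212, 1189 and 1289 CPM in Gpx4-deficient libraries (-0.50, SE 0.09, adjusted p = 0.013), and the median was -0.29. The 75 cytosolic ribosomal protein genes had a median of 0.08, and Rpsa was the one that fell (-0.67, adjusted p = 0.0104). That 1 call among 75 is near the 1.25% of all tested genes called lower. In the TRiC chaperonin and prefoldin list, which folds actin and tubulin, Cct5 (-0.74, 0.0162) and Cct3 (-0.79, 0.0399) fell among 14 tested. Psmb6, a catalytic subunit, fell from 212 ± 18.5 to 130.2 ± 10.1 CPM (-0.71, SE 0.15, adjusted p = 0.0378) among 37 proteasome genes (median -0.21). Among the fifth of tested genes with the highest mean level, 2.70% were called lower. Wdr43, Cct3 and Psmb6 were not called without any 1 wild-type library or Gpx4-deficient replicate 2 or 3 (adjusted p = 0.0618 to 0.191). Nhp2 and Cct5 were not called without any 1 wild-type library (adjusted p = 0.0571 to 0.0895). Eef2 and Rpsa were not called without wild-type replicate 1 (adjusted p = 0.0573 and 0.0519). Npm1 was not called without any 1 wild-type library or Gpx4-deficient replicate 1 or 2 (adjusted p = 0.0523 to 0.143). Nop16 was not called without any 1 wild-type library or Gpx4-deficient replicate 1 (adjusted p = 0.0633 to 0.175). Vars was not called without wild-type replicate 2 (adjusted p = 0.0504).

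Wdr4 and Wdr6, which belong to no list, encode partners of transfer RNA methyltransferases. Wdr4 (chr17:31494322-31519980, minus strand) was at 104, 103 and 111 CPM in wild-type and 26.7, 23.4 and 22.8 CPM in Gpx4-deficient libraries (-2.13, SE 0.22, adjusted p = 0.000582). The spread within each genotype was small, and Wdr4 was among the 22 genes called with the stimulated libraries alone. Wdr6 was at 129.8, 83.2 and 81.5 CPM in wild-type and 21.02, 15.4 and 32.8 CPM in Gpx4-deficient libraries (-2.09, SE 0.27, adjusted p = 0.0024). Both kept their call without any 1 library.

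The called genes of DNA replication and mitosis were all lower, beside 1.25% of all tested genes called lower. Of 29 replication licensing and S phase genes, 3 fell, 25 had a negative fold change and the median was -0.63, while the median without stimulation was -0.73. Mcm3, a subunit of the replicative helicase, was at 226, 195 and 189 CPM in wild-type and 95.2, 56.3 and 55.3 CPM in Gpx4-deficient libraries (-1.56, SE 0.20, adjusted p = 0.00239). Fen1, a flap endonuclease, was at 113, 119.7 and 123 CPM in wild-type and 49.2, 78.7 and 46.5 CPM in Gpx4-deficient libraries (-1.03, SE 0.23, adjusted p = 0.0433). Gins1, a helicase partner, was at 0 in all 3 Gpx4-deficient libraries and had 72 counts in wild type, so that its wild-type level was at least 27.7-fold higher, taking 3 counts over the group as the floor (adjusted p = 0.0351). This floor covers counting error only. Kif11, a mitotic kinesin, was the called gene among 25 of G2/M and mitosis (median -0.33), at 52.8, 41.1 and 43.2 CPM in wild-type and 1.33, 0.401 and 8.10 CPM in Gpx4-deficient libraries (-3.81, SE 0.79, adjusted p = 0.0311). The Kif11 level differed widely among the Gpx4-deficient libraries. The G2/M and mitosis median without stimulation was -0.95. Fen1 was not called without any 1 wild-type library or Gpx4-deficient replicate 1 or 3 (adjusted p = 0.0887 to 0.16). Gins1 was not called without any 1 wild-type library or Gpx4-deficient replicate 3 (adjusted p = 0.0506 to 0.0895). Kif11 was not called without any 1 wild-type library (adjusted p = 0.0672 to 0.0885).

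**Figure D3:**
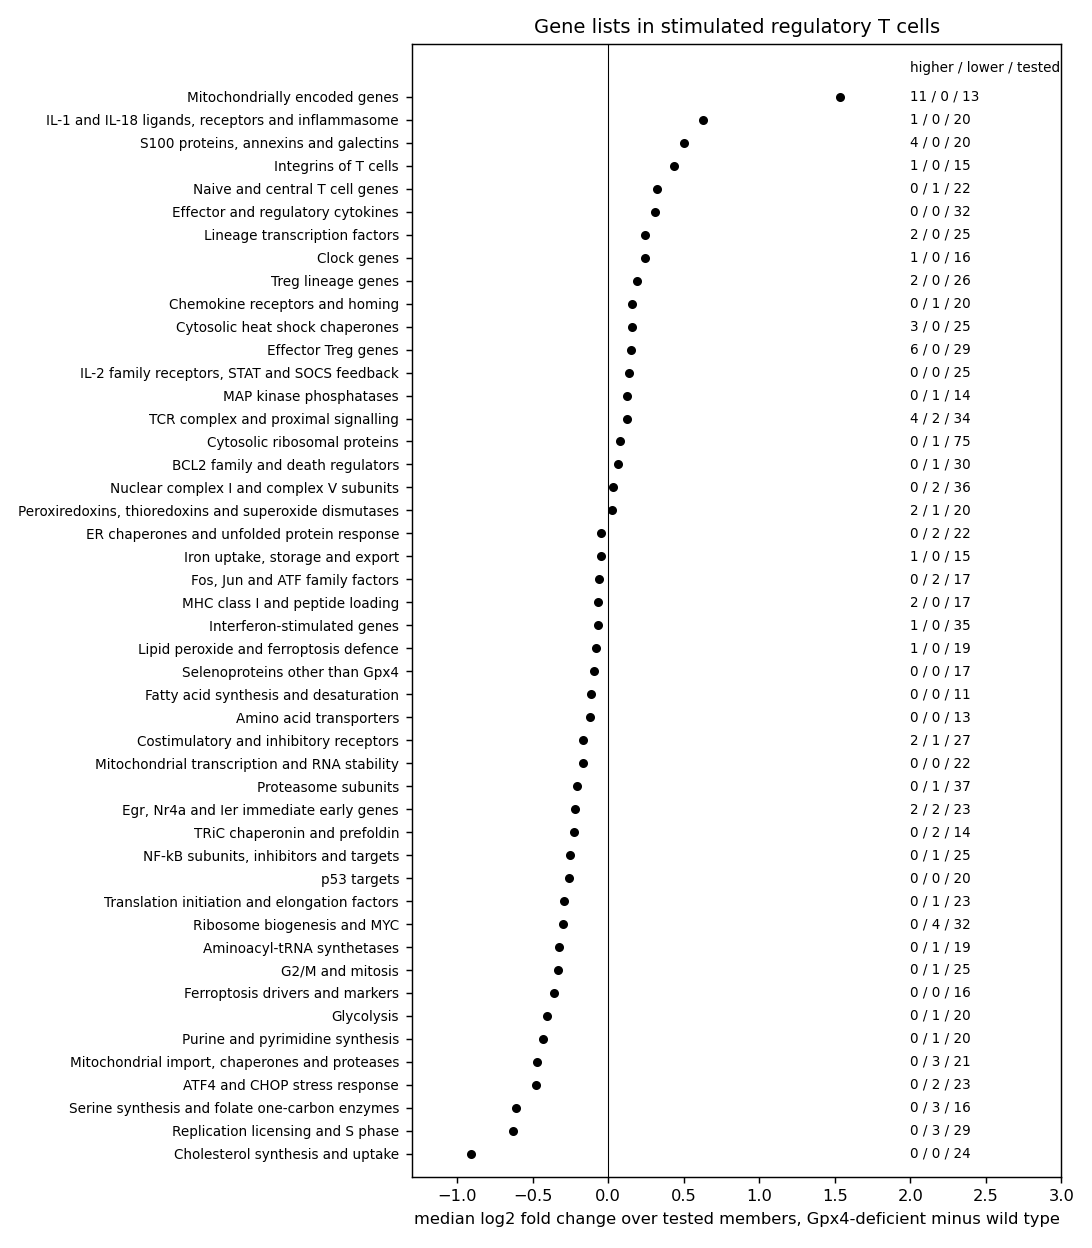
Median log2 fold change over the tested members of each of 47 gene lists (horizontal), sorted, with the numbers called higher, called lower and tested at the right. The 13 mitochondrially encoded genes stand at 1.53 with 11 called higher, and the 24 cholesterol genes at -0.91 with none called.

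Several immediate early genes fell in stimulated Gpx4-deficient cells. Nr4a1 (Nur77), an orphan nuclear receptor induced by TCR signals, Fos and Junb, which form the AP-1 factor, and Ier2 were called. Their RefSeq promoters, from 250 bases before to 50 after the start (GRCm38.p6), are shown for the 3 of these 4 genes that the table holds, because signal-induced transcription of such genes often uses sites for CREB and ATF proteins. Capitals mark the half-site TGACG or its reverse complement CGTCA, a motif chosen after the fold changes were known. Fos lies at chr12:85473640-85473939 (plus strand), Junb at chr8:84978699-84978998 (minus strand) and Nr4a1 at chr15:101266596-101266895 (plus strand).
Fos: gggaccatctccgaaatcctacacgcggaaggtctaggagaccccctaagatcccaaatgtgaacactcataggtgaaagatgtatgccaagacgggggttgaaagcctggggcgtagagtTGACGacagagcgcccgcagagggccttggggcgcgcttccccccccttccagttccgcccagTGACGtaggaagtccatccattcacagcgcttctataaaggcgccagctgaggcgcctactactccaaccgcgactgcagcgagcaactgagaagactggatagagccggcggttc
Junb: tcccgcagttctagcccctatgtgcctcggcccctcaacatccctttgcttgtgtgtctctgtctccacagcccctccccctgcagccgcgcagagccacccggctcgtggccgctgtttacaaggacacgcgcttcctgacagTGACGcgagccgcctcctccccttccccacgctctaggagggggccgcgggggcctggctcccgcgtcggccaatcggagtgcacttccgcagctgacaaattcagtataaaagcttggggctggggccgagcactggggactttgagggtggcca
Nr4a1: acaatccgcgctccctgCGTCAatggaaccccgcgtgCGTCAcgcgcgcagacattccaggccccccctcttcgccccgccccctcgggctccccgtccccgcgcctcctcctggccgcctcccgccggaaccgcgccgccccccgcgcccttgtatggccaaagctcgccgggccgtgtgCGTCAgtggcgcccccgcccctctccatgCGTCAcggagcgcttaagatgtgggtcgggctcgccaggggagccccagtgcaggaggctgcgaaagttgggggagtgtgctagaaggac
The half-site occurred 2 times in the Fos, 1 time in the Junb and 4 times in the Nr4a1 promoter. Of 10130 tested genes in the table, 35.4% held it in at least 1 promoter. The share was 25.8% of 93 genes that rose and 43.1% of 137 genes that fell. Other motifs were counted per gene in the same way. The E2F motif TTTNGCGC was found for 1.08% of genes that rose (1 of 93), 4.38% of genes that fell (6 of 137) and 2.81% of all. The E-box CACGTG was found for 10.8%, 15.3% and 11.7%. The ATF4 motif TGATGNAA was found for 1.08% (1 of 93), 2.19% (3 of 137) and 2.88% of genes, in the same order. The heat shock element, searched as 3 spaced units, was in no promoter of the genes that rose. It was found for 0.730% of genes that fell (1 of 137) and for 0.573% of all. Both strands were searched, and a match is not evidence of binding.

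Nr4a1 (chr15:101254269-101274795, plus strand) was at 3140.2, 3182 and 3192 CPM in wild-type and 1818, 1465 and 1460.5 CPM in Gpx4-deficient libraries (-1.004, SE 0.12, adjusted p = 0.00187). The 3 wild-type libraries were nearly equal and each Gpx4-deficient library was far below them. Fos was at 132, 135 and 116 CPM in wild-type and 80.96, 73.5 and 55.8 CPM in Gpx4-deficient libraries (-0.86, SE 0.14, adjusted p = 0.0076). Junb was at 1307, 1240.1 and 1072 CPM in wild-type and 799, 676 and 602 CPM in Gpx4-deficient libraries (-0.80, SE 0.13, adjusted p = 0.0104). Ier2, an early response gene, was at 534, 471 and 492 CPM in wild-type and 297, 303 and 353 CPM in Gpx4-deficient libraries (-0.65, SE 0.12, adjusted p = 0.0198). In these 3 genes too the groups did not overlap. Egr1, an early growth response factor, was lower in every Gpx4-deficient library without a call, at 1197 ± 98.6 against 799 ± 82.3 CPM (-0.58, SE 0.16, adjusted p = 0.0916). Of 23 genes in the Egr, Nr4a and Ier list, 2 fell and 2 rose, and the median was -0.22. Those that rose were Btg1, an antiproliferative factor, at 497, 489 and 541 CPM in wild-type and 759.9, 827 and 931 CPM in Gpx4-deficient libraries (0.72, SE 0.10, adjusted p = 0.00264), and Zfp36l2, which destabilises messenger RNAs, from 38.1 ± 14.2 to 95.3 ± 10.9 CPM (1.32, SE 0.28, adjusted p = 0.0351). Of 17 Fos, Jun and ATF factors, Fos and Junb fell and the median was -0.06. Dusp6, a phosphatase of ERK, fell from 51.2 ± 5.09 to 20.1 ± 5.61 CPM (-1.35, SE 0.26, adjusted p = 0.023) among 14 MAP kinase phosphatases. Fos and Junb were not called without wild-type replicate 1 or 2 (adjusted p = 0.0572 to 0.0742). Ier2 and Dusp6 were not called without any 1 wild-type library (adjusted p = 0.0659 to 0.107). Zfp36l2 was not called without wild-type replicate 1 or 2 or Gpx4-deficient replicate 3 (adjusted p = 0.0667 to 0.147).

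For several immediate early genes the genotype difference depended on the state of the cells. The interaction, which is the genotype difference with stimulation minus that without, was called for 30 genes (0.202%), 4 higher (0.027%) and 26 lower (0.175%), and 26 of them were also called in stimulated cells. Fos had 1382, 1383 and 1727 CPM in unstimulated wild-type and 3277, 3405 and 3231 CPM in unstimulated Gpx4-deficient libraries, so that it was higher without Gpx4 before stimulation (1.14) and lower after it (-0.86). The interaction was -2.01, SE 0.19, adjusted p = 0.00206. Nr4a1 went from 0.28 without to -1.004 with stimulation (interaction -1.28, SE 0.17, adjusted p = 0.0204), Junb from 0.46 to -0.80 (-1.26, SE 0.19, adjusted p = 0.028) and Ier2 from 0.48 to -0.65 (-1.13, SE 0.17, adjusted p = 0.0294). The stimulation response, whose groups are shared with the genotype comparisons, was 3.01 in wild type and 1.73 in Gpx4-deficient cells for Nr4a1 and -3.55 in wild type and -5.56 in Gpx4-deficient cells for Fos. Fos kept the interaction call without any 1 of the 12 libraries, with an adjusted p of at most 0.0274, while Nr4a1 and Junb each kept it in 4 of the 12 fits and Ier2 in 3. limma-voom called no interaction, with 1398 genes at an unadjusted p under 0.05 and adjusted p = 0.0580 for these 4 genes. DESeq2 called 520 genes.

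The unstimulated comparison used other libraries and called 10 genes (0.0674%), 8 higher (0.054%) and 2 lower (0.0135%). Among genes called in stimulated cells, 138 of 152 that rose and 130 of 185 that fell had the same sign without stimulation, against 58.3% of all tested genes. Their median there was 0.36 and -0.21. Of the 337, 6 were also called without stimulation, where Hspa8, Hspa1a and Hspa1b were higher and Gpx4 and Gm4366 lower, as with stimulation. The sixth, Fos, was called in the opposite direction, higher without stimulation (adjusted p = 0.00785).

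**Figure D4:**
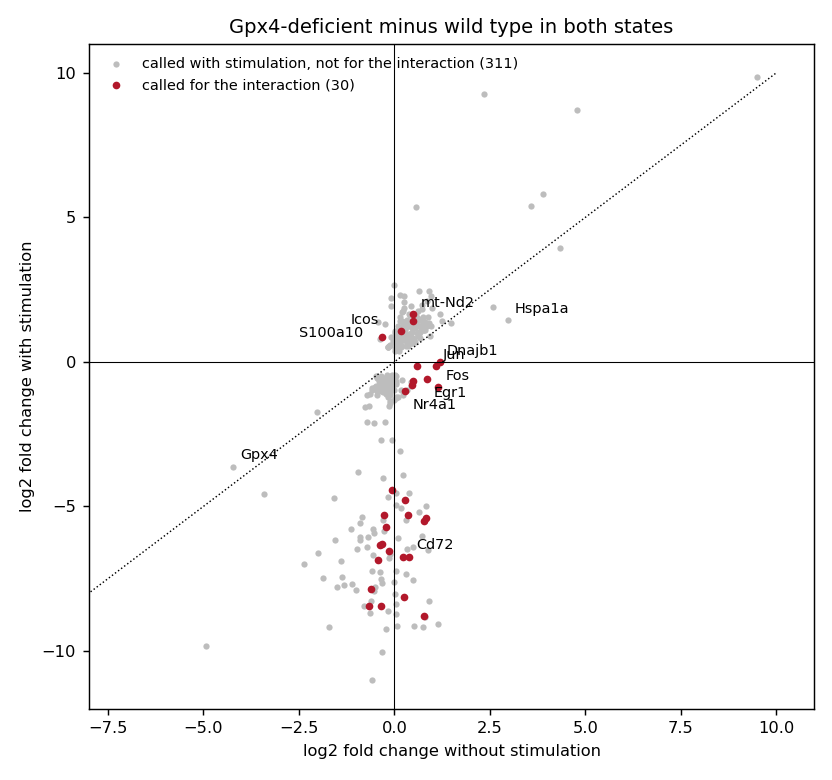
Log2 fold change (Gpx4-deficient minus wild type) with stimulation (vertical) against that without stimulation (horizontal) for genes called in stimulated cells or for the interaction. Red points are the 30 genes called for the interaction, grey points the 311 others, and the dotted line marks equal differences. Fos, Nr4a1 and Egr1 lie at positive values without and negative values with stimulation.

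Some effector genes of Treg cells rose. Of 29 effector Treg genes 6 rose, and the median was 0.15. Of 26 lineage genes 2 rose, Itgae and Ikzf2, and the median was 0.19. The lineage list was mixed, with 8 members wholly above wild type and 6 wholly below (8.29% and 11.9% of all tested genes). DESeq2 called 7 of them higher and 3 lower, and limma-voom 2 higher and 4 lower. Icos (chr1:60977927-61000320, plus strand), an inducible costimulatory receptor of the CD28 family, was at 946, 974 and 927 CPM in wild-type and 1822, 1832 and 2263 CPM in Gpx4-deficient libraries (1.06, SE 0.11, adjusted p = 0.000582). Every Gpx4-deficient library exceeded every wild-type one, and the call held without any 1 library and with the stimulated libraries alone. Its difference without stimulation was 0.17 and the interaction was 0.89, SE 0.15, adjusted p = 0.0439, a call kept in 3 of 12 fits that left out 1 library. Maf, a transcription factor of interleukin-10 producing T cells, was at 53.8, 68.6 and 43.6 CPM in wild-type and 182, 124 and 187 CPM in Gpx4-deficient libraries (1.57, SE 0.27, adjusted p = 0.0134). Itgae, the integrin CD103 of tissue Treg cells, was at 62.7, 105 and 86.3 CPM in wild-type and 179.6, 224 and 185 CPM in Gpx4-deficient libraries (1.22, SE 0.19, adjusted p = 0.00832). In both genes the groups did not overlap. Il1r2, a decoy receptor for interleukin-1, was at 414, 404 and 327 CPM in wild-type and 560.0, 639.9 and 721 CPM in Gpx4-deficient libraries (0.75, SE 0.13, adjusted p = 0.0134), and it was the called gene among 20 of the IL-1 and IL-18 list (median 0.63). Id2, an inhibitor of E proteins, rose from 122 ± 13.1 to 238 ± 59.2 CPM (0.96, SE 0.18, adjusted p = 0.0179). The inhibitory receptor Tigit rose from 139 ± 9.32 to 242 ± 37.2 CPM (0.80, SE 0.17, adjusted p = 0.0314). Ikzf2 (Helios), a factor that stabilises Treg cells, was at 515, 652 and 593 CPM in wild-type and 836, 917 and 931 CPM in Gpx4-deficient libraries (0.61, SE 0.11, adjusted p = 0.0203). Il2ra, the high-affinity interleukin-2 receptor chain, was at 2520.3 ± 172 against 2932 ± 273 CPM (0.22, SE 0.09, adjusted p = 0.223) and Ctla4 at 935 ± 38.9 against 1055 ± 163 CPM (0.17, SE 0.11, adjusted p = 0.448), neither of them called. Maf and Ikzf2 were not called without wild-type replicate 1 or 3 (adjusted p = 0.0571 to 0.0904). Id2 was not called without wild-type replicate 2 (adjusted p = 0.0567). Tigit was not called without any 1 wild-type library or Gpx4-deficient replicate 3 (adjusted p = 0.0686 to 0.0946).

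Among receptors and signalling genes the directions were mixed. Vsir, the inhibitory ligand and receptor VISTA, fell from 629 ± 64.7 to 413 ± 14.2 CPM (-0.61, SE 0.12, adjusted p = 0.0233), and Ccr7, the chemokine receptor that guides naive T cells to lymph nodes, was at 1605, 1093 and 1362 CPM in wild-type and 942, 812 and 855 CPM in Gpx4-deficient libraries (-0.64, SE 0.14, adjusted p = 0.0358). Ccr7 was the called gene among 22 naive and central T cell genes, of which 16 had a positive fold change (median 0.32). Of these 22, 7 lay wholly above wild type and 2 wholly below it. Of 34 genes of the TCR complex and its proximal signalling, 4 rose and 2 fell. Malt1, a protease that links the TCR to NF-kB, was at 159.9, 148 and 112 CPM in wild-type and 245, 298 and 295 CPM in Gpx4-deficient libraries (0.997, SE 0.17, adjusted p = 0.0126). Ptpn22, a phosphatase that damps TCR signals, rose from 624 ± 63.2 to 926 ± 67.8 CPM (0.57, SE 0.11, adjusted p = 0.0238). Laptm5, which promotes TCR degradation, rose from 422 ± 21.5 to 612 ± 44.4 CPM (0.54, SE 0.09, adjusted p = 0.00778). Lck, the kinase that starts TCR signalling, fell from 894 ± 115 to 578 ± 92.96 CPM (-0.63, SE 0.12, adjusted p = 0.0238). Of 25 NF-kB subunits, inhibitors and targets 1 fell, Ikbke, a kinase of the pathway (-1.14, adjusted p = 0.048), and the median was -0.25. None of 32 cytokine genes was called (median 0.31), against 5 with an unadjusted p under 0.05, 5 by DESeq2 and 1 by limma-voom. Il10 was at 52.9 ± 6.85 against 58.8 ± 6.13 CPM (0.15, SE 0.33, adjusted p = 0.873). Vsir was not called without any 1 wild-type library (adjusted p = 0.059 to 0.108). Ccr7 was not called without wild-type replicate 1 or 3 or Gpx4-deficient replicate 2 or 3 (adjusted p = 0.0597 to 0.142). Ptpn22 was not called without wild-type replicate 2 or 3 or Gpx4-deficient replicate 3 (adjusted p = 0.0508 to 0.0684). Lck was not called without wild-type replicate 1 or 3 or Gpx4-deficient replicate 1 (adjusted p = 0.0525 to 0.133). Ikbke was not called without any 1 wild-type library or Gpx4-deficient replicate 1 or 3 (adjusted p = 0.085 to 0.189).

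In the list of calcium-binding S100 proteins, annexins and galectins, 4 of 20 genes rose and the median was 0.50, against -0.30 without stimulation. S100a11 was at 58.6, 74.5 and 67.7 CPM in wild-type and 189, 143 and 191 CPM in Gpx4-deficient libraries (1.38, SE 0.19, adjusted p = 0.00369). S100a10, the partner of annexin A2, was at 100.4, 90.2 and 90.8 CPM in wild-type and 161, 152 and 204 CPM in Gpx4-deficient libraries (0.88, SE 0.14, adjusted p = 0.00925). Both had non-overlapping groups, and S100a10 was called for the interaction as well (1.20, SE 0.20, adjusted p = 0.0405), a call kept in 3 of 12 fits that left out 1 library. Ahnak, a very large scaffold protein of the membrane, was at 106, 106 and 93.2 CPM in wild-type and 193, 356 and 382 CPM in Gpx4-deficient libraries (1.61, SE 0.28, adjusted p = 0.0137), and Vim, the intermediate filament vimentin, rose from 599.6 ± 27.5 to 862 ± 128 CPM (0.52, SE 0.11, adjusted p = 0.0383). Ahnak was not called without wild-type replicate 1 or 3 (adjusted p = 0.0579 and 0.0557). Vim was not called without any 1 wild-type library or Gpx4-deficient replicate 3 (adjusted p = 0.0614 to 0.101).

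Stress genes moved in both directions. Of 25 cytosolic chaperones 3 rose, all of the HSP70 family. Hspa8 (chr9:40800984-40810087, plus strand), the constitutive HSP70, was at 1484, 1249 and 1371 CPM in wild-type and 2339, 2769 and 2574 CPM in Gpx4-deficient libraries (0.90, SE 0.13, adjusted p = 0.00585). The inducible genes Hspa1a (1.46, adjusted p = 0.0215) and Hspa1b (1.91, 0.0174) are near-identical copies whose reads cannot always be assigned, and their sum was 57.8, 60.4 and 52.7 CPM in wild type, against 105, 245 and 199 CPM in Gpx4-deficient libraries. The sum was higher in every Gpx4-deficient library, and the same held without stimulation, at 1140, 1153 and 1316 CPM against 7179, 9496 and 6914 CPM. Of 22 endoplasmic reticulum chaperone and unfolded protein response genes 2 fell, and the list median was -0.05, with 10 positive and 12 negative fold changes. Hspa5 (BiP) fell from 1511 ± 118 to 1094 ± 59.5 CPM (-0.47, SE 0.11, adjusted p = 0.048) and Calr, calreticulin, from 226 ± 21.3 to 160.0 ± 4.68 CPM (-0.50, SE 0.11, adjusted p = 0.0378). In the ATF4 and CHOP list 2 of 23 fell, Phgdh and Shmt2, and the median was -0.48. Bcl2l1 (BCL-XL), a protein that protects mitochondria from apoptosis, was at 503, 522 and 512 CPM in wild-type and 250.2, 282 and 304 CPM in Gpx4-deficient libraries (-0.88, SE 0.13, adjusted p = 0.00566), the called gene among 30 of the BCL2 family and death regulators. Of 20 p53 targets edgeR called none, against 7 with an unadjusted p under 0.05, 3 by DESeq2 and 0 by limma-voom. Hspa1a was not called without wild-type replicate 1 or 3 (adjusted p = 0.104 and 0.0919). Hspa1b was not called without wild-type replicate 2 or 3 (adjusted p = 0.0676 and 0.0557). Hspa5 was not called without any 1 wild-type library or Gpx4-deficient replicate 1 or 3 (adjusted p = 0.0825 to 0.209). Calr was not called without any 1 wild-type library or any 1 Gpx4-deficient library (adjusted p = 0.05 to 0.185).

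Among antigen presentation and interferon genes, Nlrc5, the transactivator of class I histocompatibility genes, was at 452, 422 and 444 CPM in wild-type and 659.9, 776 and 760.3 CPM in Gpx4-deficient libraries (0.74, SE 0.10, adjusted p = 0.00344). B2m, the light chain of class I molecules, rose from 2507 ± 138 to 3569 ± 751 CPM (0.51, SE 0.12, adjusted p = 0.0497). They were the 2 called among 17. Ifi203 was the called one of 35 interferon-stimulated genes (1.23, adjusted p = 0.00442; list median -0.07). B2m was not called without any 1 wild-type library or Gpx4-deficient replicate 3 (adjusted p = 0.0522 to 0.125).

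Above a mean log2 CPM of 3, the largest rises were in genes of varied function. Clock (chr5:76209868-76304792, minus strand), a transcription factor of the circadian oscillator, was at 18.1, 9.73 and 14.3 CPM in wild-type and 64.8, 72.5 and 129.5 CPM in Gpx4-deficient libraries (2.66, SE 0.36, adjusted p = 0.00343), and it was the called gene among 16 of the clock list (median 0.24). Fam49a, a regulator of actin remodelling, was at 11.7, 10.5 and 15.3 CPM in wild-type and 66.9, 42.8 and 97.5 CPM in Gpx4-deficient libraries (2.47, SE 0.36, adjusted p = 0.00538). In both, replicate 3 was the highest Gpx4-deficient library. Lilrb4a (chr10:51490956-51496611, plus strand), an inhibitory receptor of myeloid and activated T cells, was at 40.95, 35.9 and 51.8 CPM in wild-type and 169.9, 190.5 and 232 CPM in Gpx4-deficient libraries (2.20, SE 0.46, adjusted p = 0.0311). Zbtb20, a zinc finger repressor, was at 20.96, 26.6 and 17.1 CPM in wild-type and 78.1, 74.4 and 84.3 CPM in Gpx4-deficient libraries (1.87, SE 0.22, adjusted p = 0.00128). The groups did not overlap in these 2 genes. Elac1, a nuclease for transfer RNA ends (1.87, adjusted p = 0.0137), Arhgap18, a GTPase-activating protein (1.92, 0.0177), and Prg4, a lubricating proteoglycan (1.93, 0.0285), completed the set beside mitochondrial and chaperone genes. Lilrb4a and Prg4 were not called without any 1 wild-type library or Gpx4-deficient replicate 3 (adjusted p = 0.0522 to 0.124). Elac1 was not called without any 1 wild-type library (adjusted p = 0.0504 to 0.051). Arhgap18 was not called without wild-type replicate 1 or 2 (adjusted p = 0.0734 and 0.0735).

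Jchain, which joins antibody polymers, was at 15.8, 20.96 and 25.2 CPM in wild-type and 131, 89.8 and 85.3 CPM in Gpx4-deficient libraries (2.31, SE 0.41, adjusted p = 0.0142). Jchain is a plasma cell gene, and Igkc (2.28, adjusted p = 0.00735) and Ighm (0.95, 0.0117), the constant regions of immunoglobulin chains, rose with it. Those were 3 of 7 tested plasma cell markers, whose sum was 596 to 766 CPM in wild type, against 1429 to 1701 CPM in Gpx4-deficient libraries. Of the defining markers, Tnfrsf17 was at 0 in all 6 libraries, Sdc1 reached at most 3.51 CPM in wild type, against 8.88 CPM in Gpx4-deficient cells, and Mzb1 at most 1.22 and 13.02 CPM. The part of plasma cell RNA in the rise of Jchain was not tested. Jchain was not called without wild-type replicate 1 or 2 (adjusted p = 0.0706 and 0.0582).

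Above a mean log2 CPM of 3, the largest falls beside Gpx4, Kif11, Wdr4, Wdr6 and Mcm3 were in surface, adhesion and nuclear genes. Larger falls lay below that level, and unnamed models were left out of this ranking. Lad1 (chr1:135818598-135833342, plus strand), an anchoring filament protein first known from epithelia, was at 415, 462 and 475 CPM in wild-type and 142, 85.1 and 93.9 CPM in Gpx4-deficient libraries (-2.07, SE 0.24, adjusted p = 0.00126). Treml2, a receptor of the TREM family, was at 35.02, 27.3 and 18.8 CPM in wild-type and 4.66, 5.27 and 2.56 CPM in Gpx4-deficient libraries (-2.69, SE 0.34, adjusted p = 0.00222). Sdc4, a heparan sulphate proteoglycan, was at 25.5, 16.3 and 22.9 CPM in wild-type and 3.34, 4.13 and 2.37 CPM in Gpx4-deficient libraries (-2.72, SE 0.52, adjusted p = 0.0204). All 3 had every Gpx4-deficient library below every wild-type library. Uap1, an enzyme of hexosamine synthesis (-1.52, adjusted p = 0.0108), Ccar2, a regulator of the deacetylase SIRT1 (-1.44, 0.0126), and Med11, a Mediator subunit (-1.53, 0.0389), also fell. Tdg, a DNA glycosylase that removes mismatched thymine, was at 237, 202 and 150.3 CPM in wild-type and 36.8, 55.5 and 86.7 CPM in Gpx4-deficient libraries (-1.72, SE 0.34, adjusted p = 0.0259), while its pseudogene Tdg-ps2, named after its value was seen, went from 1.14, 0.386 and 0.485 to 22.99, 42.5 and 46.6 CPM (5.79, 0.00713). Reads of the 2 cannot always be told apart. Their sum with Tdg-ps was 239, 203 and 151 CPM in wild type, against 65.4, 106 and 152 CPM in Gpx4-deficient libraries, and these groups overlapped. Sdc4 was not called without wild-type replicate 1 or 3 (adjusted p = 0.0917 and 0.0728). Ccar2 was not called without wild-type replicate 2 or 3 (adjusted p = 0.0638 and 0.0508). Med11 was not called without any 1 wild-type library or Gpx4-deficient replicate 2 or 3 (adjusted p = 0.0603 to 0.168). Tdg was not called without wild-type replicate 1 or 2 (adjusted p = 0.11 and 0.0886).

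Transcripts that nearly vanished in Gpx4-deficient cells were among the falls with a mean log2 CPM below 3. Capn3, a calpain protease, was at 2.93, 3.28 and 5.41 CPM in wild-type and 0.0359, 0.0925 and 0.0754 CPM in Gpx4-deficient libraries (-5.72, SE 0.43, adjusted p = 0.000134). Cd72, a C-type lectin mostly known from B cells, was at 8.04, 23.9 and 6.63 CPM in wild-type and 0.143, 0.0925 and 0.113 CPM in Gpx4-deficient libraries (-6.74, SE 0.64, adjusted p = 0.000493). Cenpj, a centriole protein, was at 16.3, 11.7 and 18.4 CPM in wild-type and 0.0717, 0.185 and 0.226 CPM in Gpx4-deficient libraries (-6.55, SE 0.67, adjusted p = 0.000582), and Tbxa2r, the thromboxane receptor, was at 14.5, 7.30 and 8.77 CPM in wild-type and 0.574, 0.123 and 0.414 CPM in Gpx4-deficient libraries (-4.78, SE 0.51, adjusted p = 0.000778). All 4 were near 0 in each Gpx4-deficient library and above 2 CPM in each wild-type library. All 4 were called for the interaction, a call that Capn3 kept in all 12 fits that left out 1 library, Cd72 in 9, and Cenpj and Tbxa2r in 7 each. Their differences without stimulation were -0.21, 0.38, -0.15 and 0.28. The B cell sum given above overlapped between the genotypes. The higher number of genes at 0 in the Gpx4-deficient libraries stands beside these falls, and its part in them was not tested. With genes divided by mean level into 5 equal bins, from low to high, bin 2 held 62 of the 185 falls, bin 3 held 5 and bin 5 held 80. That level includes the Gpx4-deficient libraries, so a gene that nearly vanished there sits in a lower bin than by its wild-type level alone.

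The balance of rises and falls differed between bins of transcript length, with no trend from short to long. Genes were divided into 5 equal bins by summed exon length. In the shortest bin (up to 1858 bases) 35 genes rose and 22 fell, and in the longest (6858 bases or more) 53 rose and 23 fell. In bins 2, 3 and 4 fewer rose than fell, at 12 against 49, 20 against 50 and 29 against 39. The median log2 fold changes of bins 1 to 5 were 0.04, -0.09, -0.07, -0.04 and 0.15. Among the genes that rose were Malat1, a long nuclear non-coding RNA, at 1027, 1791 and 1597 CPM in wild-type and 3098, 3490.3 and 3830.1 CPM in Gpx4-deficient libraries (1.24, SE 0.20, adjusted p = 0.0083) and Crebbp, a large coactivator, from 182 ± 20.9 to 369 ± 57.7 CPM (1.02, SE 0.16, adjusted p = 0.00691). These 2 were chosen after their values were seen. Across all genes with a length the rank correlation of length and fold change was 0.03, a description over genes that share the same 6 libraries. The part of length in these differences was not tested.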

How the data were processed

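RNA from 12 samples of sorted mouse Treg cells was sequenced from stranded poly(A) libraries, per the labels' protocols. The authors deposited 1 table of gene-level expected counts from RSEM, which need not be whole numbers, for 24502 gene symbols. Per the submitters' processing notes the build is GRCm38. The aligner is not given in the sources used here. Each column was matched to its sample by the title, and no column was unmatched.

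Expected counts were rounded and tested by quasi-likelihood F tests (edgeR 4.0.16, R 4.3.3) with robust dispersion, TMM scaling and filterByExpr. All 12 libraries shared 1 fit with 4 group means, leaving 8 residual degrees of freedom. The SE of a fold change was derived from the F statistic. Means are given with SD over 3 libraries. Library totals of 24629230 to 31879267 counts set the counting precision. Alternatives were RLE and upper quartile scaling, other filters, limma 3.58.1 (voom, with and without sample quality weights), DESeq2 1.42.0, a replicate block, library sizes without mitochondrial genes, only the 6 stimulated libraries, and leaving out each library. The edgeR steps were tested on simulated counts.

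The 47 gene lists, 10 marker lists and the naming rule were chosen with earlier results of these data known. The rule names Gpx4 and Foxp3, the 12 largest rises and falls at a mean log2 CPM of at least 3 with non-overlapping groups, the 8 smallest p each way, up to 4 called members of each list, and the 5 smallest p each way for the interaction. Receptor and immunoglobulin segments, sex-linked genes and unnamed models were left out of the ranked sets. Some genes picked by the rule are not described, and 1 is not reported here. Of the list genes, 76 belong to more than 1 list. Lists are described by counts and medians. Gene coordinates and lengths are from GENCODE M21, with a length for 98.1% of tested genes, and promoters from RefSeq.

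Replicate numbers recur in the sample titles of all groups. Same-numbered libraries did not deviate together from their group means, between genotypes in stimulated cells or between states within a genotype, so the numbers were not used as pairs. The check ran over all tested genes, low counts included, and cannot exclude a pairing. The labels do not say whether an unstimulated and a stimulated library with the same number came from 1 mouse.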

Additional observations from a re-analysis of the deposited data

Results flagged for a closer look

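The genotype difference depended on stimulation for 12 named genes, as judged by the interaction term of the edgeR fit (the difference with stimulation minus that without, log2). The negative values were -7.11 for Cd72, -6.40 for Cenpj, -5.51 for Capn3, -5.06 for Tbxa2r, -2.01 for Fos, -1.28 for Nr4a1, -1.26 for Junb and -1.13 for Ier2. The positive ones were 1.20 for S100a10, 1.15 for mt-Nd2, 0.92 for mt-Cytb and 0.89 for Icos. Adjusted p ranged from 0.00206 to 0.0439. Capn3 and Fos kept the call in each of the 12 fits that left out 1 library, Cd72 in 9, Cenpj and Tbxa2r in 7, Nr4a1 and Junb in 4, and mt-Nd2, Ier2, mt-Cytb, S100a10 and Icos in 3. None of the 12 was called by limma-voom (adjusted p = 0.0580 to 0.163), and all 12 were called by DESeq2.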

How the results depend on the processing

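None of the 94 called genes named by the rule changed direction under any alternative run. In stimulated cells the count of 337 was 1876 with DESeq2 (884 higher, 992 lower), 99 with voom quality weights (72 and 27) and 22 with the 6 stimulated libraries alone (17 and 5). Leaving out 1 library gave 117 to 658. RLE scaling gave 171 higher and 170 lower, and voom 159 and 314. In unstimulated cells the count of 10 was 218 with DESeq2, 21 with voom and 82 with quality weights, and 3 to 14 without 1 library. The interaction count of 30 was 520, 0 and 4 with these tools (1398 genes at an unadjusted p under 0.05 by voom), and 2 to 167 without 1 library. Gpx4 was not called with quality weights (-3.81, adjusted p = 0.0736) or with the 6 stimulated libraries alone (-3.60, 0.0648), and ranged from -3.83 to -3.23 without 1 library. The cause of these shifts was not tested.

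With the replicate number as a block, 171 genes were called in stimulated cells (87 higher, 84 lower), 3 in unstimulated cells and 5 for the interaction, and Gpx4 was at -3.73. The correlation of same-numbered libraries' deviations was 0.008, -0.024 and 0.003 between genotypes in stimulated cells. That of same-numbered unstimulated and stimulated libraries of a genotype was -0.022 to 0.030. No pairing by number was seen, but these correlations cannot exclude one. A block for each genotype and number, added after seeing the data, called no interaction by edgeR (886 genes at an unadjusted p under 0.05), with adjusted p of 0.157 to 0.312 for the 12 genes above. Of 94 called genes named by the rule, 40 kept their call without any 1 library and 13 under every other setting. Where a Gpx4-deficient group sits at 0 counts, depth limits the fold to a bound.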
